A study of Mus musculus with 9 samples.

Results

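C-type lectin receptors are proteins built around a sugar-binding or protein-binding fold, and in the mouse most of them are encoded by genes whose symbols begin with Clec or Klr. The members described here were all rows of the gene count table whose symbol starts with Clec and a digit or with Klr and a letter from a to k, which gave 45 genes of 18094, 25 with Clec and 20 with Klr symbols. Of these, 39 lie on chromosome 6, and 1 each on chromosomes 7 (Clec11a), 8 (Clec4g), 9 (Clec3b), 11 (Clec10a), 12 (Clec14a) and 16 (Clec16a). The data are RNA-seq read counts from endothelium of cardiac tissue, the cells lining the vessels of the heart, which was isolated freshly with magnetic microbeads. There were 3 libraries in each of 3 groups: BPH/2J mice of 22 weeks, BPH/2J mice of 4 weeks and BPN/3J mice of 22 weeks. BPH/2J is the hypertensive inbred line and BPN/3J the normotensive one. The labels name no transgene, deletion or drug for any group. The labels do not say whether a library came from 1 animal or from pooled animals, so the p-values rest on differences among libraries that may be technical replicates. The 22-week BPH/2J group was set against BPN/3J of the same age and against the younger BPH/2J mice. The 4-week BPH/2J group against 22-week BPN/3J differs in line and age together, and it shares its control libraries with the 22-week comparison of the lines.

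Receptors of this family read surfaces. Klra genes encode the Ly49 receptors, with which mouse natural killer cells sense MHC class I molecules on other cells, and the CD94, NKG2 and Klrb1 receptors do related work with other ligands. Clec2 proteins on target cells are ligands of Klrb1 receptors, and together they form a self-recognition pair. Myeloid cells carry the Dectin group (Clec7a, Clec4n, Clec4e, Clec4d), which binds fungal and bacterial sugars and lipids and signals through the kinase Syk and the adaptor Card9. Endothelium has its own lectins, of which Clec14a binds the matrix protein Mmrn2. The genes for the natural killer receptors sit side by side in a cluster of chromosome 6, the natural killer gene complex, where 28 of the members lie between Klrb1a and Klra2.

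The sequences upstream of 5 neighbouring Ly49 genes are shown because these genes had nearly all of their counts in BPH/2J libraries. Each is the 250 bases before the annotated start, from RefSeq on GRCm38.p6, on the minus strand, written 5′ to 3′ with motif matches in capitals. Klra9 lies at chr6:130193113-130193362, Klra3 at chr6:130337627-130337876, Klra10 at chr6:130281929-130282178, Klra4 at chr6:130067272-130067521 and Klra1 at chr6:130386875-130387124.
Klra9: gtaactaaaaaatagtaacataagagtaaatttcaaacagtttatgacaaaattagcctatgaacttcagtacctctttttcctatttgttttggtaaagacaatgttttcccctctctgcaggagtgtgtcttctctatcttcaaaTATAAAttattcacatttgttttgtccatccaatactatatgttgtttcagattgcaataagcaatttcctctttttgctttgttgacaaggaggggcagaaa
Klra3: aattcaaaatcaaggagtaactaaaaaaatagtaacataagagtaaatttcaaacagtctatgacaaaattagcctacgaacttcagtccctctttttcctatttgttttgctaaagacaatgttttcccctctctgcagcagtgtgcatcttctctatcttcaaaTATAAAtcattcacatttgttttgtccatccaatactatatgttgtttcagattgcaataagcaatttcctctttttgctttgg
Klra10: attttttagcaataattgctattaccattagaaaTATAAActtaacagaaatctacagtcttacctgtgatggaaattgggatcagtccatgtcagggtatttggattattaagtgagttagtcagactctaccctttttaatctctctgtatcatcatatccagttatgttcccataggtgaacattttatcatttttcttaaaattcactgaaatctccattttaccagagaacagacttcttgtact
Klra4: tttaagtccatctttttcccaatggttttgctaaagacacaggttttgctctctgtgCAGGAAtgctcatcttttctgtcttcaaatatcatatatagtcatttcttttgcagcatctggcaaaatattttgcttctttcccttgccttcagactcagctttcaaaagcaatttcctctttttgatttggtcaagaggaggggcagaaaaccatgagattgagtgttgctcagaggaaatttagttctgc
Klra1: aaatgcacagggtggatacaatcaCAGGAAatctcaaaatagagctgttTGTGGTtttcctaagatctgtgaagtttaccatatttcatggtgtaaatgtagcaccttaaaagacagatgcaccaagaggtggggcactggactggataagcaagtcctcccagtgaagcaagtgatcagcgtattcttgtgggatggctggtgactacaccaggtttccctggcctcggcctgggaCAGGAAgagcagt
The Klra9 and Klra3 stretches were 83.3% identical, while Klra10 was 50.6% identical to Klra9 and 49.8% to Klra3, Klra4 47.3% and Klra1 47.6% to Klra9. For comparison, the same stretch of Clec12b, a gene outside the Ly49 family, was 47.5% identical to that of Klra9. Identity was taken over a global alignment of the fixed 250 bases with gaps counted, so like stretches at different distances from the start lower it. Klra9 and Klra4 hold such stretches, so their value does not measure how related the 2 sequences are. Klra4 was 79.0% identical to Klra17 and 70.1% to Klra2. The motif TATAAA occurred once in Klra9, Klra3 and Klra10, starting 103, 84 and 216 bases before the start, and CAGGAA, the core of an Ets factor motif, once in Klra4, starting 193 bases before it, and at 226 and 13 bases before it in Klra1. The Runx factor motif TGTGGT occurred once in Klra1, starting 201 bases before the start, and in none of the other 4. On either strand, TATAAA occurred in 12.4% and CAGGAA in 25.7% of 32851 mouse promoters of this length. The Runx factor motif was found in 14.0% of them. The GATA factor motif AGATAA, in 9.99%, and the AP-1 motif, TGA followed by any base and then TCA, in 6.75%, had no match in these 5. A match is a description of letters and not of a bound site.

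The libraries held 28806840 to 32913813 counts, so that 3 counts, the smallest number read as signal, correspond to 0.09206 to 0.1052 CPM, the count scaled to the library total after TMM normalisation. Endothelial markers such as Cdh5 were abundant, with a summed level of 14587 to 14628 CPM over 12 markers in BPH/2J at 22 weeks, 13364 to 14243 in BPH/2J at 4 weeks and 11611 to 12046 in BPN/3J. Replicate 1 of 4-week BPH/2J stood apart: a chi-square of its counts against the other two libraries of its group was 53.5 and 46.5 per degree of freedom, and theirs against each other 6.49. Its platelet markers summed to 101.88 CPM, against 48.862 and 54.439 CPM in replicates 2 and 3. Results that it moves are given with and without it.

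Of the 45 members, 27 passed the filter on low counts, and 18 did not, with 12 to 66 counts over all 9 libraries. In edgeR's quasi-likelihood test, with p-values adjusted by Benjamini-Hochberg over 15277 tested genes and called under 0.05, 6 members were higher and 4 lower in 22-week BPH/2J than in BPN/3J. That was 22.2% and 14.8% of the tested members, beside 19.8% and 18.2% of all tested genes, so the shares were near the background. Between 22-week and 4-week BPH/2J, 7 members were higher and 9 lower at 22 weeks, 25.9% and 33.3% of them, beside 19.9% and 21.1% of all genes. In 4-week BPH/2J against BPN/3J, 5 were higher and 9 lower, 18.5% and 33.3%, beside 27.8% and 25.3%. The median log2 fold change of the tested members was -0.45, 0.13 and 0.05 in these comparisons, and that of all tested genes 0.02, 0.01 and 0.00. Klra9, Klra10 and Clec12b passed the filter through the groups in which they are high, so their presence among the tested members is not independent of their difference. The same holds for Clec4g and Klrd1, which passed through 22-week BPH/2J, and for Klrk1 and Klra2, which passed through BPN/3J. Their other groups had too few libraries above the filter, and any calls of these genes carry that limit.

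**Figure D1:**
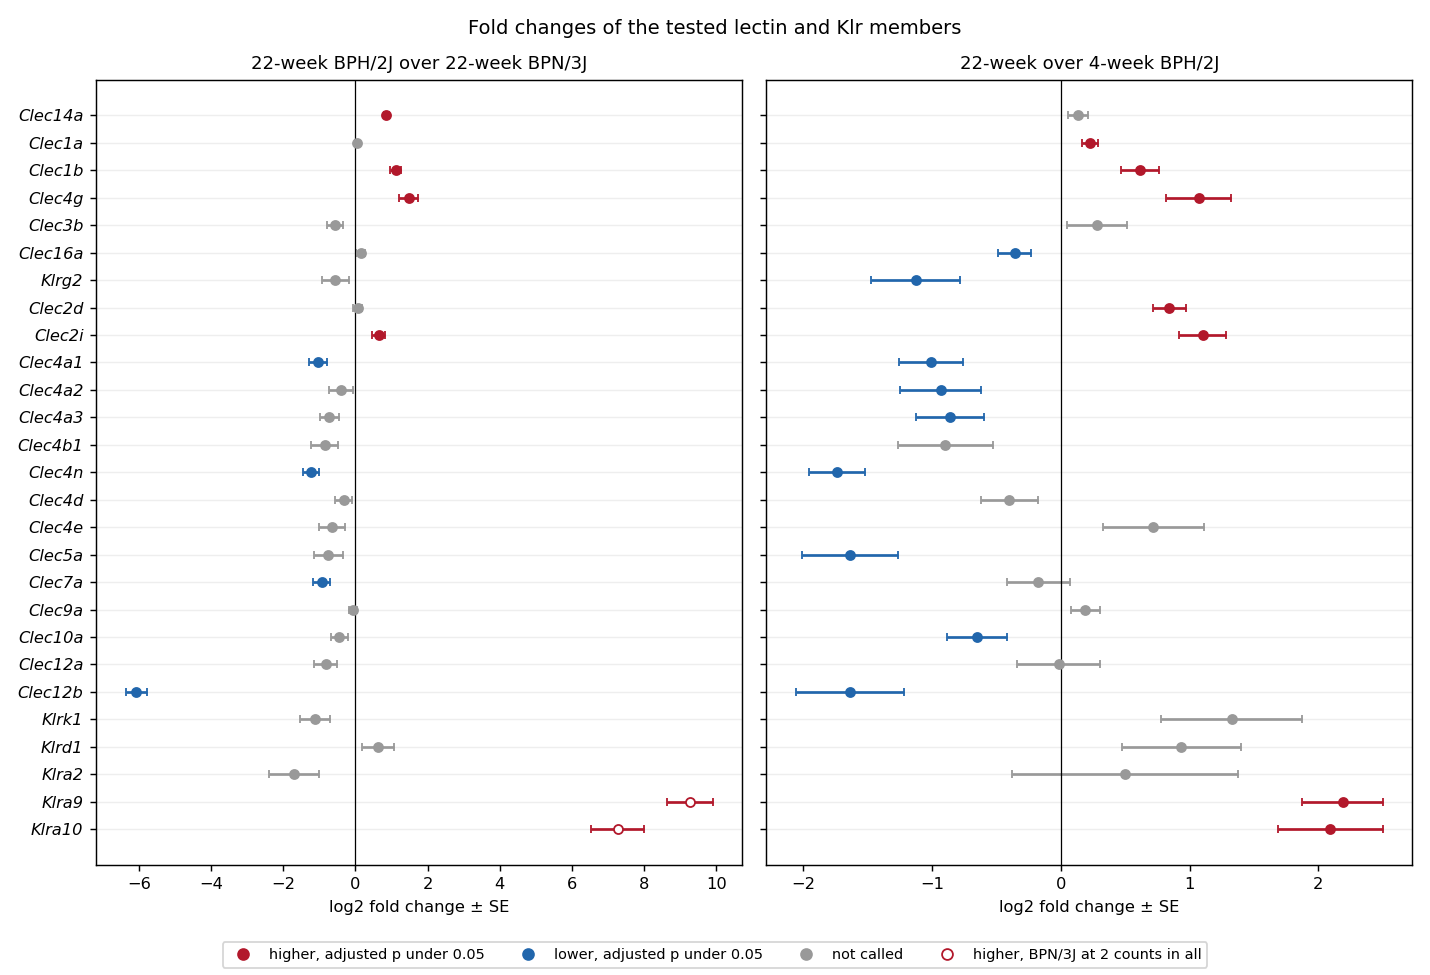
Log2 fold change with its standard error for the 27 tested members, 22-week BPH/2J over 22-week BPN/3J on the left and 22-week over 4-week BPH/2J on the right, with different horizontal scales. Red is higher, blue lower and grey not called. Klra9 and Klra10 lie at 9.28 and 7.27 and Clec12b at -6.08 on the left, and the open points mark genes with 2 counts over the BPN/3J libraries, whose fitted value is no measured fold.

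Klra9 and Klra10 were nearly absent from BPN/3J and present in BPH/2J at both ages. Klra9 (ENSMUSG00000033024), which encodes the inhibitory receptor Ly49I, had 516, 520 and 530 counts in the 22-week BPH/2J libraries. It had 193, 61 and 87 counts in the 4-week BPH/2J libraries and 1, 1 and 0 in the BPN/3J libraries. The 3 groups did not overlap: the older BPH/2J libraries lay close together, the younger ones below them with replicate 1 highest, and BPN/3J held almost no reads of the gene. In CPM, Klra9 averaged 16.8 ± 0.197 in 22-week BPH/2J, 3.69 ± 2.27 in 4-week BPH/2J and 0.023 ± 0.020 in BPN/3J (SD, n = 3 each).

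The ratio of the summed counts of Klra9, scaled for depth, was 732.1 in 22-week BPH/2J over BPN/3J, with a 95% counting interval of 202.3 to 6051 (adjusted p = 2.84e-06, edgeR). It was 160.7 (44.13 to 1332) in 4-week BPH/2J over the same libraries (adjusted p = 2.37e-05). These intervals cover counting error only, and 2 counts set the lower end of the ratio. Leaving out 1 BPN/3J library placed the first ratio between 492.0 and 979.3 and the second between 108.0 and 214.9, and without 4-week replicate 1 the second was 104.4 (28.4 to 870.4). Within BPH/2J, Klra9 was 4.56-fold higher at 22 than at 4 weeks, a log2 fold change of 2.19 ± 0.31 (SE, adjusted p = 0.00039), and without 4-week replicate 1 the log2 fold change was 2.81 (adjusted p = 1.107e-06).

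Klra10 (ENSMUSG00000072718), which encodes Ly49J, followed the same order. It had 134, 132 and 122 counts in BPH/2J at 22 weeks, 56, 13 and 21 in BPH/2J at 4 weeks and 0, 0 and 2 in BPN/3J. Again no group overlapped another, and 4-week replicate 1 was the highest of its group. Its count ratio was 181.4 (49.88 to 1503) in 22-week BPH/2J over BPN/3J (adjusted p = 4.58e-05, edgeR) and 42.4 (11.4 to 355.5) in 4-week BPH/2J over BPN/3J (adjusted p = 0.000726). Both counts of BPN/3J came from its replicate 3, and without that library the gene was at 0 there. Against a floor of 3 counts over the group, the ratios were then 81.27 and 19. The lower ends of the 95% counting intervals were 65.78 and 15.13. Without 4-week replicate 1 the second ratio was 23.99 (6.15 to 206.1). Leaving out BPN/3J replicate 1 or 2 gave 119.6 and 121.3 for the first ratio and 27.95 and 28.36 for the second. From 4 to 22 weeks it was 4.27-fold higher (log2 2.09 ± 0.41, adjusted p = 0.00249), and without 4-week replicate 1 the log2 fold change was 2.92 (adjusted p = 3.06e-05).

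A further 4 Ly49 rows, all under the filter, had their highest counts in 22-week BPH/2J and almost none in BPN/3J, at far lower counts.
Klra4, which encodes the activating receptor Ly49D, had 11, 13 and 10 counts in BPH/2J at 22 weeks, 1, 2 and 2 in BPH/2J at 4 weeks and 0 in every BPN/3J library. Klra3 (Ly49C) had 12, 9 and 17 counts in BPH/2J at 22 weeks, 3, 1 and 5 in BPH/2J at 4 weeks and 1, 0 and 0 in BPN/3J. Klra11-ps, annotated as a pseudogene, had 4, 8 and 8, then 1 in each 4-week library, and 0 in BPN/3J, and Klra1 (Ly49A) had 6, 3 and 4 in BPH/2J at 22 weeks, 2, 1 and 2 in BPH/2J at 4 weeks and 0 in BPN/3J. None of these rows was above 17 counts in any library, so each is near the limit of what the depth can show. Against a floor of 3 counts over the BPN/3J libraries, the ratio for 22-week BPH/2J was 10.6 for Klra4, 6.233 for Klra11-ps and 4.052 for Klra1. The lower ends of the 95% counting intervals were below these values, at 8.159, 4.616 and 2.85. The Klra3 ratio was 35.53 (6.003 to 1440). Without the low-count filter these 4 genes were called higher in 22-week BPH/2J than in BPN/3J, with adjusted p between 0.000428 and 0.00577 (edgeR). Between the ages all but Klra1 (0.135) were called higher at 22 weeks. In 4-week BPH/2J against BPN/3J, Klra4 (0.0251) and Klra1 (0.0316) were called higher, and Klra3 (0.0535) and Klra11-ps (0.0883) were not. DESeq2 called none of the 4 in that comparison (0.0757 to 0.259).

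Summed over these 6 Ly49 rows, 22-week BPH/2J libraries had 683, 685 and 691 counts, 4-week libraries 256, 79 and 118, and BPN/3J libraries 2, 1 and 2. Klra9 and Klra10 kept a similar proportion in BPH/2J, with 3.851, 3.939 and 4.344 counts of Klra9 per count of Klra10 at 22 weeks and 3.446, 4.692 and 4.143 at 4 weeks. The transcripts are similar enough for reads to be exchanged between them to a degree: Klra9 and Klra3 transcripts were 93.1% identical and Klra9 and Klra10 62.4%. Gaps count against identity here, so the shorter Klra10 transcript, with 724 windows of 100 bases against 1277 for Klra9, lowers the second value. It is therefore no measure of likeness over the part that both have. Of the 100-base windows of Klra9 transcripts, 3.52% were shared exactly with Klra11-ps and 0.548% with Klra8, while Klra10 shared 2.21% with Klra11-ps and 3.04% with Klra3. No such window was common to Klra9 and Klra10. The low counts of Klra3 and Klra11-ps are therefore uncertain as separate genes, and exchange of reads with mismatches between Klra9 and Klra10 was not tested.

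**Figure D2:**
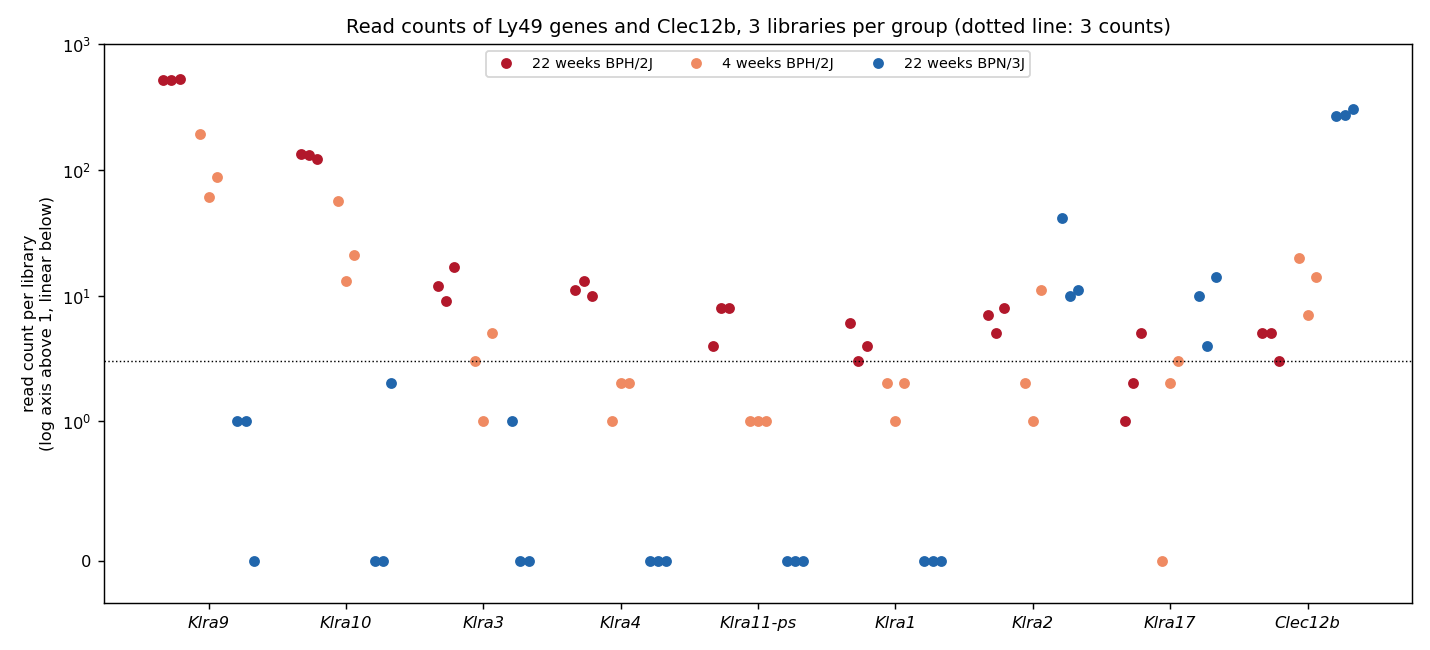
Read counts of 8 Ly49 genes and Clec12b in each library, on a log axis above 1 count, with 22-week BPH/2J left, 4-week BPH/2J in the middle and 22-week BPN/3J right for each gene. The dotted line marks 3 counts. Klra9, Klra10, Klra3, Klra4, Klra11-ps and Klra1 have their highest counts in 22-week BPH/2J, while Clec12b has 3 to 5 counts in 22-week BPH/2J, against 268 to 305 in BPN/3J.

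The other 2 Ly49 genes had their highest counts in BPN/3J. Klra2, which encodes Ly49B, had 7, 5 and 8 counts in BPH/2J at 22 weeks, 2, 1 and 11 in BPH/2J at 4 weeks and 41, 10 and 11 in BPN/3J, where replicate 1 was far above the rest. It was lower in 4-week BPH/2J than in BPN/3J (log2 -2.20 ± 0.73, adjusted p = 0.0257, edgeR), a call lost without 4-week replicate 1 (adjusted p = 0.0645), 4-week replicate 2 (0.0777) or BPN/3J replicate 1 (log2 -1.26, 0.149), while without 4-week replicate 3 the log2 fold change was -3.71 (0.0077). Between the lines at 22 weeks the difference was -1.70 ± 0.68 (adjusted p = 0.0716), and it passed without 4-week replicate 3 (0.046). Klra17, which encodes Ly49Q, was under the filter, with 1, 2 and 5 counts in BPH/2J at 22 weeks, 0, 2 and 3 in BPH/2J at 4 weeks and 10, 4 and 14 in BPN/3J.

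Markers of natural killer and T cells, which are among the cells that can carry Ly49 receptors, were present at low level. Which cells carried the Ly49 genes here, Klra2 and Klra17 among them, was not tested. Over 19 markers of natural killer and T cells the summed level was 40.467 to 56.327 CPM in BPH/2J at 22 weeks, 19.517 to 28.503 in BPH/2J at 4 weeks and 30.089 to 39.243 in BPN/3J, Cd247 among them, and no marker was at 0 in all libraries. Ncr1, which defines natural killer cells, was at 0.421, 0.290 and 0.419 CPM in BPH/2J at 22 weeks, 0.163, 0.172 and 0.215 in BPH/2J at 4 weeks and 0.439, 0.035 and 0.175 in BPN/3J. Of the 17 tested markers, 10 were higher and none lower at 22 than at 4 weeks of BPH/2J, in the direction of the Ly49 genes, and 4 were higher and 1 lower in 22-week BPH/2J than in BPN/3J. In 4-week BPH/2J against BPN/3J none was higher and 5 were lower, while Klra9 and Klra10 were higher there. Of all tested genes, 19.9% were higher and 21.1% lower between the ages, and 19.8% and 18.2% between the lines at 22 weeks. In 4-week BPH/2J against BPN/3J these shares were 27.8% and 25.3%. The part of natural killer and T cells in the Ly49 counts was not tested, and in bulk samples fewer cells of a type and less RNA per cell cannot be told apart.

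The 7 members of the CD94 and NKG2 group and their relatives had low counts in every group. Klrk1, which encodes the activating receptor NKG2D, was at 0.421, 0.193 and 0.547 CPM in BPH/2J at 22 weeks, 0.098, 0.207 and 0.153 in BPH/2J at 4 weeks and 1.28, 0.556 and 0.701 in BPN/3J. Its BPN/3J libraries lay above all others, with replicate 1 highest. Klrk1 was 5.47-fold lower in 4-week BPH/2J than in BPN/3J (log2 -2.45 ± 0.49, adjusted p = 0.00181, edgeR). Between the lines at 22 weeks it did not pass (-1.12 ± 0.42, adjusted p = 0.0559), and it did without 4-week replicate 1 (0.0479) or BPN/3J replicate 2 (0.0427). Between the ages it did not pass either (log2 1.33 ± 0.55, adjusted p = 0.0767), except without 22-week BPH/2J replicate 2 (1.65, 0.0341).

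Klrd1, which encodes CD94, the partner chain of the NKG2 receptors, ranged from 0.228 to 0.870 CPM with overlapping groups and no call. Klrc2 (NKG2C), Klre1, Klri1, Klri2 and the cadherin receptor Klrg1 were under the filter, at no more than 0.439 CPM in any library. Hcst, the adaptor through which NKG2D signals, was at 0.843, 0.547 and 1.19 CPM in BPH/2J at 22 weeks, 0.522, 0.414 and 0.184 in BPH/2J at 4 weeks and 0.236, 0.208 and 0.386 in BPN/3J. It was higher in 22-week BPH/2J than in BPN/3J (log2 1.62 ± 0.43, adjusted p = 0.0137) and than at 4 weeks (1.21 ± 0.41, adjusted p = 0.0358, edgeR). Hcst had 80 counts over the 22-week BPH/2J libraries, 34 over the 4-week libraries and 24 over BPN/3J. It passed the filter on low counts through 22-week BPH/2J, so both calls carry that limit.

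Among the Clec2 ligands, Clec2d had the highest level per length of transcript of all members in both 22-week groups and stood below Clec14a in 4-week BPH/2J, at a mean of 114 CPM per kilobase in 22-week BPH/2J, 63.6 in 4-week BPH/2J and 109 in BPN/3J. Clec2d encodes Clr-b, the ligand of the inhibitory receptor Klrb1b. It stood at 143, 120 and 152 CPM in 22-week BPH/2J, at 89.5, 73.3 and 68.6 in 4-week BPH/2J and at 140, 145 and 112 in BPN/3J. The 4-week libraries lay below all others, and the 22-week groups of both lines overlapped. Clec2d was 1.79-fold higher at 22 than at 4 weeks (log2 0.84 ± 0.13, adjusted p = 0.000582, edgeR) and 1.71-fold lower in 4-week BPH/2J than in BPN/3J (-0.78 ± 0.13, adjusted p = 0.000512). At 22 weeks the lines differed by 0.07 ± 0.13 (adjusted p = 0.703).

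Clec2i, which encodes Clr-g, the ligand of Klrb1f, was at 2.98, 2.48 and 3.35 CPM in BPH/2J at 22 weeks, 1.40, 1.38 and 1.32 in BPH/2J at 4 weeks and 2.02, 2.01 and 1.58 in BPN/3J. The groups did not overlap in any pair, with 22-week BPH/2J highest. It was higher than at 4 weeks (log2 1.10 ± 0.18, adjusted p = 0.00099, edgeR) and than in BPN/3J (0.65 ± 0.18, adjusted p = 0.0163). The second call was lost without 22-week BPH/2J replicate 3 (0.066) or BPN/3J replicate 3 (0.0617). In 4-week BPH/2J against BPN/3J the difference was -0.45 ± 0.19 (adjusted p = 0.0667), and it passed without BPN/3J replicate 3 (-0.56, 0.0436). Clec2e and Clec2g and the receptor genes Klrb1a, Klrb1b, Klrb1c and Klrb1f were under the filter, at no more than 0.491 CPM in any library. Per length of transcript, the receptor gene Klrb1b averaged 0.072 CPM per kilobase in 22-week BPH/2J, beside the 114 CPM per kilobase of its ligand Clec2d.

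Among the endothelial lectins, Clec14a stood first per length, with 100 CPM per kilobase in 22-week BPH/2J, 91.5 in 4-week BPH/2J and 55.4 in BPN/3J. Its levels were 429, 464 and 476 CPM in BPH/2J at 22 weeks, 445, 383 and 419 in BPH/2J at 4 weeks and 267, 252 and 235 in BPN/3J. Both BPH/2J groups lay above every BPN/3J library and overlapped each other. Clec14a was 1.81-fold higher in 22-week BPH/2J (log2 0.86 ± 0.08, adjusted p = 2.21e-05, edgeR) and 1.65-fold higher in 4-week BPH/2J (0.72 ± 0.08, adjusted p = 2.82e-05) than in BPN/3J, and between the ages the difference was 0.13 ± 0.08 (adjusted p = 0.187). Mmrn2, its matrix ligand, was at 754, 750 and 784 CPM in BPH/2J at 22 weeks, 571, 676 and 605 in BPH/2J at 4 weeks and 556, 612 and 579 in BPN/3J. Mmrn2 was higher in 22-week BPH/2J than in BPN/3J (log2 0.39 ± 0.08, adjusted p = 0.00281) and than at 4 weeks (0.30 ± 0.08, adjusted p = 0.0093). Cd93, a related lectin of endothelium that also binds Mmrn2, was at 934, 1064 and 991 CPM in BPH/2J at 22 weeks, 1658, 1877 and 1738 in BPH/2J at 4 weeks and 673, 682 and 660 in BPN/3J. Cd93 was thus higher in 22-week BPH/2J than in BPN/3J (0.57 ± 0.08, adjusted p = 0.000313) and lower than at 4 weeks (-0.82 ± 0.08, adjusted p = 3.56e-05), where Clec14a had no call. Of the 12 endothelial markers, 7 were higher and 1 lower in 22-week BPH/2J than in BPN/3J, beside 19.8% and 18.2% of all tested genes. In 4-week BPH/2J against BPN/3J, 3 were higher and 2 lower, beside 27.8% and 25.3%, with a median log2 fold change of -0.03. Between the ages 5 were higher and 0 lower at 22 weeks, beside 19.9% and 21.1%. The part of endothelial content in the Clec14a difference was not tested.

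Clec1a, a receptor of endothelium and dendritic cells, varied little: 177, 194 and 176 CPM in BPH/2J at 22 weeks, 150, 164 and 152 in BPH/2J at 4 weeks, and 176, 174 and 180 in BPN/3J. The 4-week libraries were lowest. It was 1.17-fold higher at 22 than at 4 weeks (log2 0.23 ± 0.06, adjusted p = 0.0129, edgeR), which was lost without 22-week replicate 2 (0.0528) or 4-week replicate 3 (0.052). It was lower in 4-week BPH/2J than in BPN/3J (-0.19 ± 0.06, adjusted p = 0.0263), which was lost without 4-week replicate 1 or 3 or any 1 BPN/3J library (adjusted p from 0.0532 to 0.0891).

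Clec1b encodes CLEC-2, the receptor for podoplanin through which platelets are activated. It was at 22.9, 20.4 and 16.3 CPM in BPH/2J at 22 weeks, 15.8, 11.8 and 11.3 in BPH/2J at 4 weeks and 9.52, 8.68 and 9.19 in BPN/3J. The 3 groups did not overlap. Clec1b was 2.17-fold higher in 22-week BPH/2J than in BPN/3J (log2 1.12 ± 0.15, adjusted p = 0.000325, edgeR) and 1.53-fold higher than at 4 weeks (0.62 ± 0.15, adjusted p = 0.00782). In 4-week BPH/2J it was 1.42-fold higher than in BPN/3J (0.50 ± 0.15, adjusted p = 0.0181), which was lost without 4-week replicate 1 (0.0538) or BPN/3J replicate 2 (0.0593). Platelet markers summed to 41.56 to 48.918 CPM in BPH/2J at 22 weeks, 48.862 to 101.88 in BPH/2J at 4 weeks and 46.801 to 50.293 in BPN/3J. Of 10 such markers, none was higher and 1 lower in each comparison of 22-week BPH/2J, with a median log2 fold change of 0.04 against BPN/3J and -0.52 against 4 weeks. Of the same markers, 1 was higher and none lower in 4-week BPH/2J against BPN/3J, with a median of 0.61, in the direction of Clec1b there. Of all tested genes, 19.8% were higher and 18.2% lower between the lines at 22 weeks, and 19.9% and 21.1% between the ages. In 4-week BPH/2J against BPN/3J these shares were 27.8% and 25.3%. The part of platelets in the Clec1b differences was not tested. Pdpn, the gene for podoplanin, was at 0.844 to 1.78 CPM over all libraries with no call.

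Clec4g encodes LSECtin, a receptor known from the sinusoidal endothelium of liver and lymph node, and was low here at 0.746, 0.740 and 0.644 CPM in BPH/2J at 22 weeks, 0.326, 0.310 and 0.368 in BPH/2J at 4 weeks and 0.236, 0.313 and 0.210 in BPN/3J. The 22-week BPH/2J libraries lay above all others. It was 2.78-fold higher than in BPN/3J (log2 1.47 ± 0.27, adjusted p = 0.00185, edgeR) and 2.10-fold higher than at 4 weeks (1.07 ± 0.25, adjusted p = 0.0069). Sinusoidal markers, such as Stab1, summed to 577.65 to 599.31 CPM in BPH/2J at 22 weeks, 681.19 to 968.65 in BPH/2J at 4 weeks and 695.48 to 780.94 in BPN/3J.

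Clec3b encodes tetranectin, a secreted protein that binds plasminogen. It was at 6.74, 6.66 and 6.28 CPM in BPH/2J at 22 weeks, 8.02, 3.69 and 4.48 in BPH/2J at 4 weeks and 9.99, 10.2 and 8.94 in BPN/3J. Replicate 1 of the 4-week group stood apart from its group. Clec3b was lower in 4-week BPH/2J than in BPN/3J (log2 -0.85 ± 0.23, adjusted p = 0.0102, edgeR). Against BPN/3J, 22-week BPH/2J did not pass (-0.57 ± 0.23, adjusted p = 0.0721), but did without 4-week replicate 1 (0.00203) or 2 (0.0361). Without 4-week replicate 1 it was also higher at 22 than at 4 weeks (log2 0.68, adjusted p = 0.00175), against 0.28 ± 0.23 with it. Fibroblast markers, whose cells are a known source of tetranectin, summed to 582.16 to 735.91 CPM in BPH/2J at 22 weeks, 459.95 to 720.88 in BPH/2J at 4 weeks and 1185.5 to 1265.3 in BPN/3J, and their part was not tested.

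Clec16a, an intracellular protein of mitophagy and autophagy, was at 42.2, 46.7 and 39.3 CPM in BPH/2J at 22 weeks, 42.4, 62.5 and 59.3 in BPH/2J at 4 weeks and 36.4, 39.9 and 39.9 in BPN/3J. It was higher in 4-week BPH/2J than in BPN/3J (log2 0.50 ± 0.13, adjusted p = 0.00758, edgeR). It was lower at 22 than at 4 weeks (-0.36 ± 0.13, adjusted p = 0.0455), with groups that overlap, and that call was lost without 22-week BPH/2J replicate 1 or 3, 4-week replicate 2 or 3, or any 1 BPN/3J library (adjusted p from 0.0566 to 0.164). It was also lost with scaling by library totals (0.0591), without the low-count filter (0.0537), with a filter of 1 CPM in 3 libraries (0.0509) and with the 2 groups fitted alone (0.0801). Klrg2 was at 1.17, 0.869 and 0.805 CPM in BPH/2J at 22 weeks, 1.08, 2.27 and 2.85 in BPH/2J at 4 weeks and 1.45, 1.04 and 1.68 in BPN/3J. Klrg2 was lower at 22 than at 4 weeks (-1.13 ± 0.35, adjusted p = 0.0248), again with overlapping groups, and lost the call without 22-week replicate 2 or 3 or 4-week replicate 2 or 3 (0.067 to 0.116). Without 4-week replicate 1 it was higher in 4-week BPH/2J than in BPN/3J (0.88, adjusted p = 0.0111). The growth factor gene Clec11a and Clec2l were under the filter, at no more than 0.418 CPM.

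**Figure D3:**
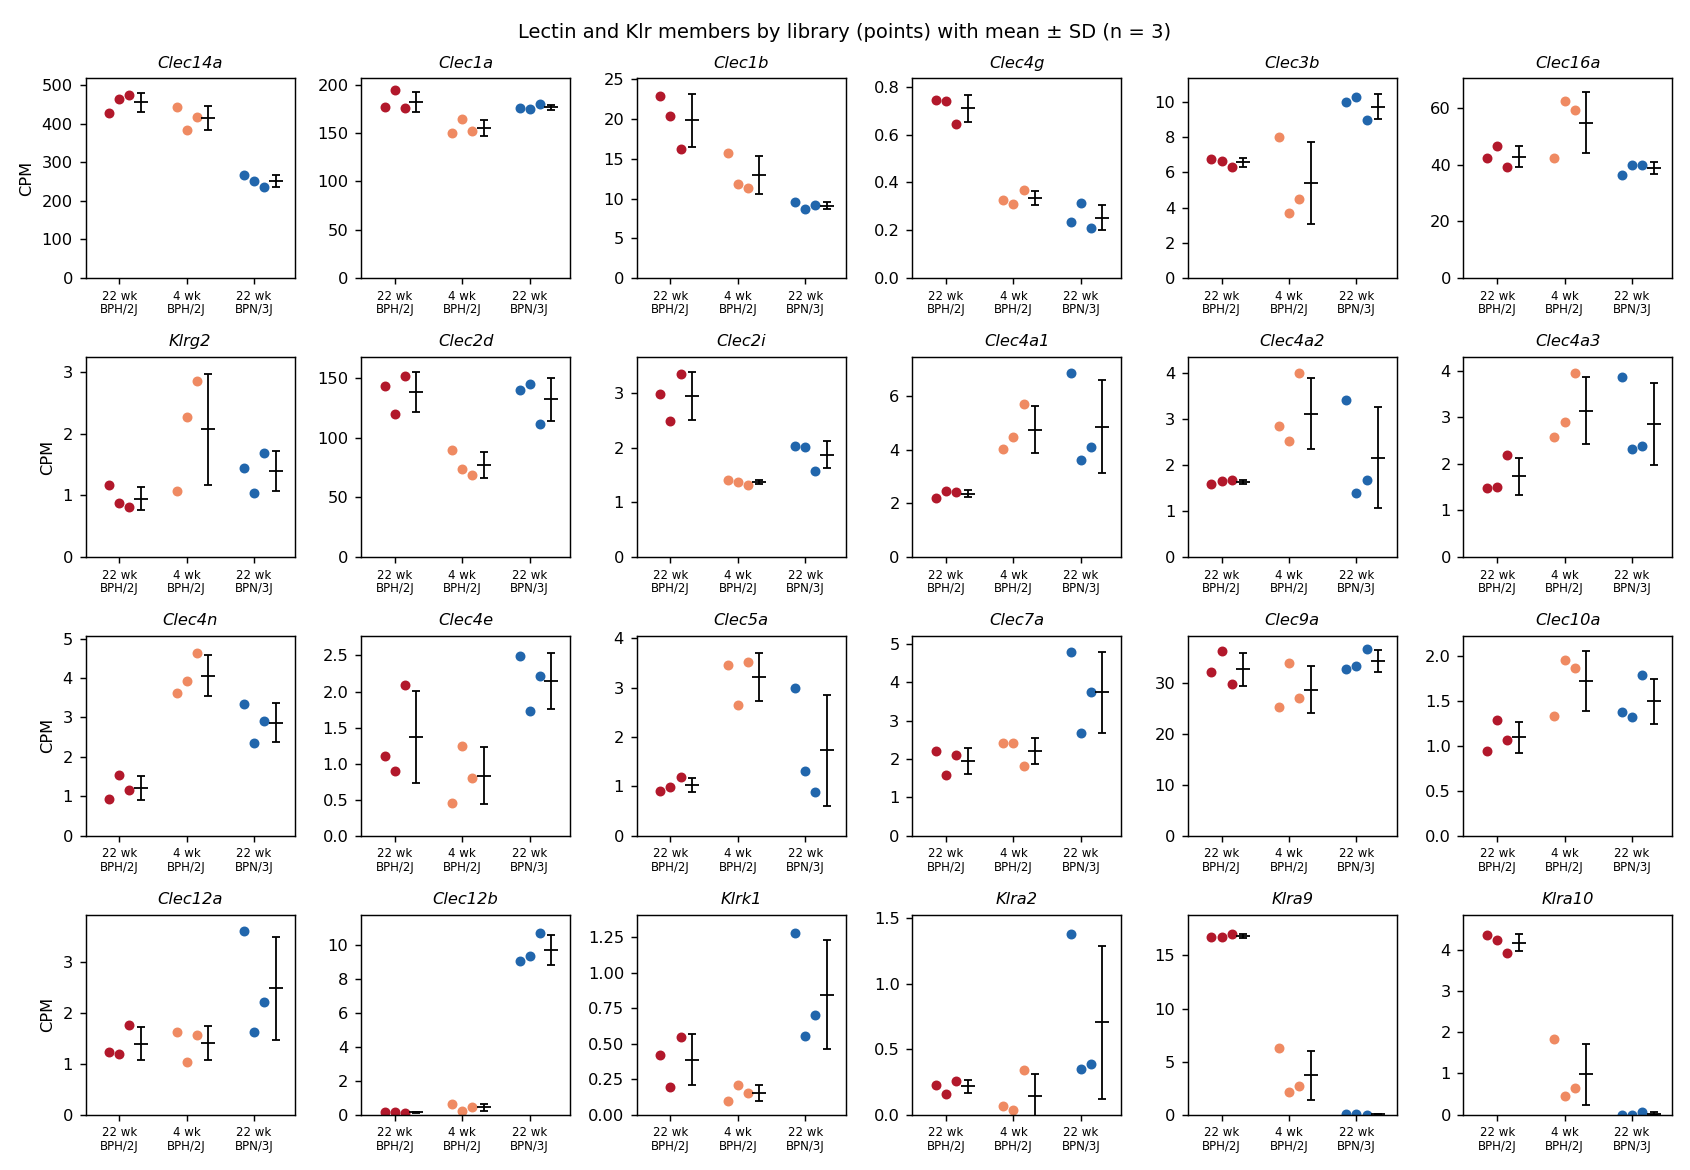
Level in CPM of the 24 members that were called in a comparison or had a mean of at least 1 CPM in a group, with a point for each library and a bar for the mean ± SD (n = 3), 22-week BPH/2J left, 4-week BPH/2J in the middle and 22-week BPN/3J right in each panel. All axes start at 0. Clec14a, Clec1b, Klra9 and Klra10 are lowest in BPN/3J, Clec2d and Clec1a are lowest in 4-week BPH/2J, and Clec12b is near 0 in both BPH/2J groups.

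Clec12b (ENSMUSG00000030158), an inhibitory receptor of the myeloid lectin group, was the counterpart of the Ly49 genes. It had 5, 5 and 3 counts in BPH/2J at 22 weeks, 20, 7 and 14 in BPH/2J at 4 weeks and 268, 270 and 305 in BPN/3J. The groups did not overlap, and the BPH/2J libraries held few reads at either age. It was 67.4-fold lower in 22-week BPH/2J (log2 -6.08 ± 0.30, adjusted p = 2.78e-07, edgeR) and 21.7-fold lower in 4-week BPH/2J (-4.44 ± 0.25, adjusted p = 4.19e-07) than in BPN/3J, and 3.11-fold lower at 22 than at 4 weeks (-1.64 ± 0.42, adjusted p = 0.0108). Its neighbours on chromosome 6 are Clec12a and Clec1b. Clec12a was at 1.23, 1.19 and 1.77 CPM in BPH/2J at 22 weeks, 1.63, 1.03 and 1.57 in BPH/2J at 4 weeks and 3.61, 1.63 and 2.21 in BPN/3J, with a log2 fold change of -0.83 ± 0.31 in 22-week BPH/2J over BPN/3J (adjusted p = 0.0564). Clec1b was higher in BPH/2J at both ages than in BPN/3J.

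Clec9a, which encodes the receptor DNGR-1 of dendritic cells that binds actin of dead cells, had the highest level per length of the myeloid lectin group, 9.84 CPM per kilobase in 22-week BPH/2J, 8.63 in 4-week BPH/2J and 10.3 in BPN/3J. Its levels were 32.2, 36.3 and 29.9 CPM in BPH/2J at 22 weeks, 25.2, 33.9 and 27.2 in BPH/2J at 4 weeks and 32.9, 33.4 and 36.8 in BPN/3J. The groups overlapped and no comparison passed. Without 4-week replicate 2 it was higher at 22 than at 4 weeks (log2 0.32, adjusted p = 0.03) and lower in 4-week BPH/2J than in BPN/3J (-0.39, adjusted p = 0.00853, edgeR). Clec9a and Clec1b are neighbours whose annotated transcripts share 2.47% and 1.66% of their 100-base windows. The dendritic cell markers, such as Zbtb46, which endothelium also expresses, summed to 212.92 to 241.7 CPM in BPH/2J at 22 weeks, 193.84 to 239.04 in BPH/2J at 4 weeks and 225.9 to 253.07 in BPN/3J, and which cells carried Clec9a cannot be told from bulk libraries.

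The other 11 myeloid receptors had their lowest sum in 22-week BPH/2J. This set leaves out Clec9a and Clec12b and was formed with the values known, so its sums are a description. They summed to 13.32, 13.93 and 16.49 CPM in BPH/2J at 22 weeks, 23.48, 24.19 and 29.21 in BPH/2J at 4 weeks and 33.91, 19.45 and 23.11 in BPN/3J. All 22-week BPH/2J libraries lay below the other 6, and BPN/3J replicate 1 was highest. Relative to BPN/3J, 3 of the 11 were lower and none higher in 22-week BPH/2J, with a median log2 fold change of -0.75, where 18.2% of all tested genes were lower. Against 4-week BPH/2J, 6 were lower and none higher, with a median of -0.86, where 21.1% of all tested genes were lower. In that comparison Clec4e differed by 0.72 and Clec12a by -0.02 on the log2 scale, neither of them called.

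Clec4n, which encodes Dectin-2, a receptor of fungal mannans, was at 0.940, 1.54 and 1.16 CPM in BPH/2J at 22 weeks, 3.62, 3.93 and 4.63 in BPH/2J at 4 weeks and 3.34, 2.36 and 2.91 in BPN/3J. No group overlapped another. It was 2.36-fold lower in 22-week BPH/2J than in BPN/3J (log2 -1.24 ± 0.22, adjusted p = 0.0017, edgeR) and 3.34-fold lower than at 4 weeks (-1.74 ± 0.22, adjusted p = 0.00017). In 4-week BPH/2J against BPN/3J it was 0.50 ± 0.20 (adjusted p = 0.0566), and it was called higher without 22-week replicate 2 (0.0446), 4-week replicate 1 (0.0399) or BPN/3J replicate 1 (0.0455).

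Clec4a1, of the DCIR family, was at 2.20, 2.44 and 2.42 CPM in BPH/2J at 22 weeks, 4.01, 4.48 and 5.71 in BPH/2J at 4 weeks and 6.85, 3.61 and 4.10 in BPN/3J, so that the older BPH/2J libraries were lowest. It was lower than in BPN/3J (log2 -1.04 ± 0.25, adjusted p = 0.00743, edgeR) and than at 4 weeks (-1.01 ± 0.25, adjusted p = 0.008). Clec7a, which encodes Dectin-1, the receptor of fungal beta-glucan, had another order, at 2.20, 1.58 and 2.09 CPM in BPH/2J at 22 weeks, 2.41, 2.41 and 1.81 in BPH/2J at 4 weeks and 4.79, 2.67 and 3.75 in BPN/3J. Both BPH/2J groups lay below BPN/3J, in 22-week BPH/2J by a log2 fold change of -0.93 ± 0.24 (adjusted p = 0.0111) and in 4-week BPH/2J by -0.76 ± 0.24 (adjusted p = 0.0191). The second call was lost without 4-week replicate 3 (0.0727) or BPN/3J replicate 1 (0.0866).

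Clec5a, a receptor that signals through the adaptor Tyrobp, was at 0.908, 0.997 and 1.19 CPM in BPH/2J at 22 weeks, 3.46, 2.65 and 3.53 in BPH/2J at 4 weeks and 3.00, 1.32 and 0.877 in BPN/3J. BPN/3J was spread over the range of both BPH/2J groups. Clec5a was 3.11-fold lower at 22 than at 4 weeks (log2 -1.64 ± 0.37, adjusted p = 0.00583, edgeR). The line comparison at 22 weeks (-0.75 ± 0.39, adjusted p = 0.155) was called without BPN/3J replicate 3 (-1.07, 0.0428) and was -0.09 without BPN/3J replicate 1. In 4-week BPH/2J against BPN/3J it was 0.89 ± 0.35 (adjusted p = 0.0562), and without BPN/3J replicate 1 it was called higher (1.55, 0.000956).

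A further 3 genes were lower at 22 than at 4 weeks of BPH/2J by calls that did not hold without single libraries. Clec4a2, which encodes the inhibitory receptor DCIR, was at 1.59, 1.64 and 1.68 CPM in BPH/2J at 22 weeks, 2.84, 2.52 and 3.99 in BPH/2J at 4 weeks and 3.41, 1.39 and 1.68 in BPN/3J. Its log2 fold change was -0.93 ± 0.31 (adjusted p = 0.0355, edgeR), lost without any 1 of the 22-week BPH/2J libraries or 4-week replicate 3 (0.0789 to 0.142), and without BPN/3J replicate 1 it was called higher in 4-week BPH/2J than in BPN/3J (1.02, 0.00706). Clec4a3 was at 1.49, 1.51 and 2.19 CPM in BPH/2J at 22 weeks, 2.58, 2.89 and 3.96 in BPH/2J at 4 weeks and 3.88, 2.33 and 2.38 in BPN/3J. The change was -0.86 ± 0.27 (adjusted p = 0.0246), lost without 22-week replicate 1 or 2 or 4-week replicate 3 (0.0774 to 0.109). Clec4a3 was also below every BPN/3J library in 22-week BPH/2J, at -0.73 ± 0.27 (adjusted p = 0.0537), and called without 22-week BPH/2J replicate 3 (0.0433) or 4-week replicate 1 (0.0401) or 3 (0.0492).

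Clec10a, which encodes the galactose-binding receptor MGL1, was at 0.940, 1.29 and 1.06 CPM in BPH/2J at 22 weeks, 1.34, 1.96 and 1.87 in BPH/2J at 4 weeks and 1.38, 1.32 and 1.79 in BPN/3J. It was lower at 22 than at 4 weeks (log2 -0.65 ± 0.23, adjusted p = 0.0433, edgeR), a call lost without 22-week replicate 1 or 3, 4-week replicate 2 or 3, or BPN/3J replicate 1 or 2 (0.0548 to 0.1475). The call was also lost with scaling by library totals (0.0546), without the low-count filter (0.0533), with DESeq2 (0.0534) and with the 2 groups fitted alone (0.058). Clec4e, which encodes Mincle, was at 1.10, 0.901 and 2.09 CPM in BPH/2J at 22 weeks, 0.457, 1.24 and 0.798 in BPH/2J at 4 weeks and 2.50, 1.74 and 2.21 in BPN/3J. It was lower in 4-week BPH/2J than in BPN/3J (-1.37 ± 0.38, adjusted p = 0.0114), and lower in 22-week BPH/2J without its replicate 3 (-1.09, adjusted p = 0.0467). Clec12a was also lower in 4-week BPH/2J than in BPN/3J (-0.81 ± 0.31, adjusted p = 0.0468), a call lost without 22-week BPH/2J replicate 1 or 2, 4-week replicate 2 or 3, or BPN/3J replicate 1 or 3 (0.0547 to 0.228), and lost with scaling by library totals (0.0562) or with the 2 groups fitted alone (0.0665). Clec12a passed in 22-week BPH/2J against BPN/3J without 4-week replicate 1 (0.0482) or BPN/3J replicate 2 (0.026). Clec4d (MCL, 0.483 to 0.767 CPM over all libraries) and Clec4b1 (0.130 to 0.583 CPM) were not called.

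Macrophage and monocyte markers also had their lowest sum in 22-week BPH/2J. Over 19 measured markers, such as Lyz2, the sum was 296.36, 315.5 and 331.1 CPM in BPH/2J at 22 weeks, 507.01, 744.82 and 990.31 in BPH/2J at 4 weeks and 760.83, 461.8 and 513.1 in BPN/3J, with BPN/3J replicate 1 again highest of its group. Of the 19, 11 were lower and 1 higher in 22-week BPH/2J than in BPN/3J, beside 18.2% and 19.8% of all tested genes. Against 4 weeks 14 were lower and 1 higher, beside 21.1% and 19.9%. In 4-week BPH/2J against BPN/3J 1 marker was lower and 2 higher, with a median log2 fold change of 0.28. There 3 of the 11 receptors were lower and 0 higher, with a median of 0.07, beside 25.3% and 27.8% of all tested genes. The summed receptors were 4.415% to 4.98% of the summed markers in BPH/2J at 22 weeks, 2.95% to 4.631% in BPH/2J at 4 weeks and 4.212% to 4.504% in BPN/3J. The part of macrophages and monocytes in the receptor differences was not tested.

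**Figure D4:**
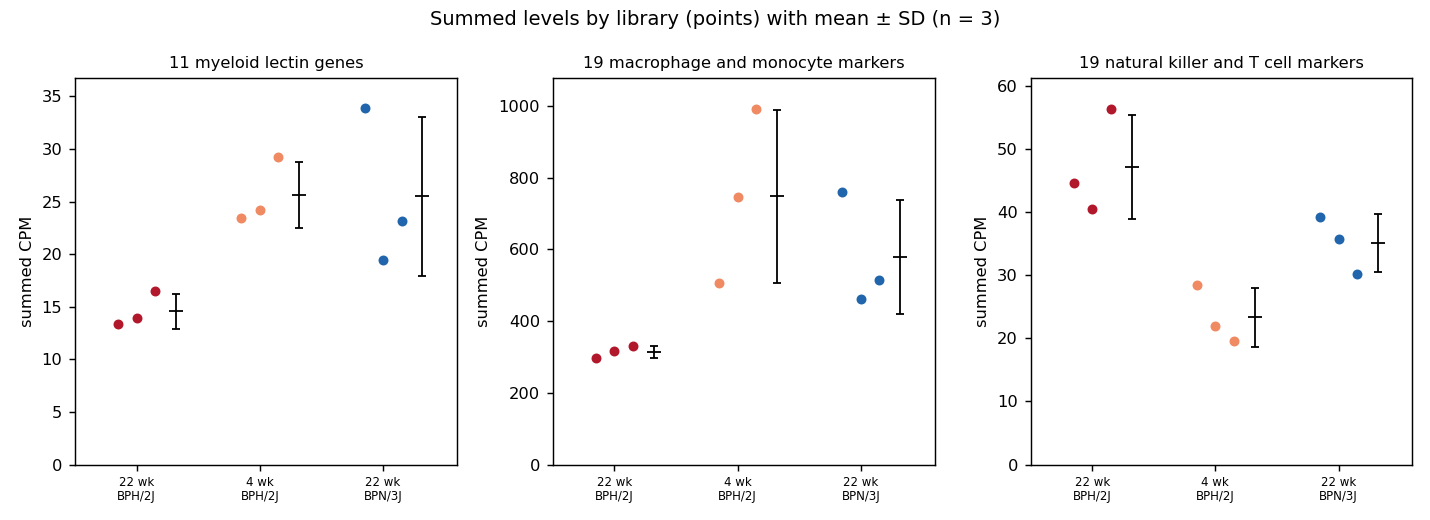
Summed level in CPM of the 11 myeloid lectin genes, of 19 macrophage and monocyte markers and of 19 natural killer and T cell markers, with a point for each library and a bar for the mean ± SD (n = 3), 22-week BPH/2J left, 4-week BPH/2J in the middle and 22-week BPN/3J right. The first 2 panels are lowest in 22-week BPH/2J, at 13.32 to 16.49 and 296.36 to 331.1 CPM, and the third is highest there, at 40.467 to 56.327 CPM.

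The signalling partners of these receptors were counted from a list of 30 adaptors and signalling genes, of which 29 were tested. In 22-week BPH/2J, 1 was higher and 7 lower than in BPN/3J, and 5 were higher and 12 lower than at 4 weeks. In 4-week BPH/2J 9 were higher and 5 lower than in BPN/3J. In the same order, the shares of all tested genes were 19.8% and 18.2%, 19.9% and 21.1%, and 27.8% and 25.3%. Tyrobp, the adaptor of Clec5a and of activating Ly49 receptors, was at 7.81, 7.01 and 8.60 CPM in BPH/2J at 22 weeks, 12.2, 14.7 and 19.3 in BPH/2J at 4 weeks and 14.2, 8.41 and 6.66 in BPN/3J. It was lower at 22 than at 4 weeks (log2 -0.98 ± 0.25, adjusted p = 0.0109, edgeR), as were Fcer1g, the Fc receptor chain that serves Clec4n (-1.005 ± 0.28, adjusted p = 0.0156), and Card9 (-1.18 ± 0.33, adjusted p = 0.017). Syk, the kinase through which the Dectin group signals, was at 32.1, 26.2 and 44.25 CPM in BPH/2J at 22 weeks, 50.3, 54.7 and 55.6 in BPH/2J at 4 weeks and 57.0, 54.5 and 58.0 in BPN/3J. Every 22-week BPH/2J library lay below both other groups.

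Syk was lower than in BPN/3J (log2 -0.72 ± 0.15, adjusted p = 0.00352) and than at 4 weeks (-0.65 ± 0.15, adjusted p = 0.00585, edgeR). With the smallest adjusted p among the lower genes stood Nfatc2 (-0.77) and Prkcd (-0.73) in the line comparison, and the phosphatase gene Inpp5d (-0.51) and Bcl10 (-0.26), the partner of Card9, in the age comparison. The higher genes of the age comparison included Cd247, the T cell receptor zeta chain (1.57 ± 0.29, adjusted p = 0.00174), and Plcg1 (0.24 ± 0.08, adjusted p = 0.0308).

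The ligand list had 25 genes, of which 20 were tested. In 22-week BPH/2J, 3 were higher and 7 lower than in BPN/3J, and 6 higher and 5 lower than at 4 weeks, while in 4-week BPH/2J 5 were higher and 8 lower than in BPN/3J. The shares of all tested genes were again 19.8% and 18.2%, 19.9% and 21.1%, and 27.8% and 25.3%. The classical MHC class I genes, whose products Ly49 receptors bind, were lower in 22-week BPH/2J than in BPN/3J. H2-K1 was at 170, 193 and 189 CPM in BPH/2J at 22 weeks, 167, 231 and 196 in BPH/2J at 4 weeks and 469, 393 and 326 in BPN/3J (log2 -1.11 ± 0.14, adjusted p = 0.00021, edgeR, at 22 weeks), and H2-D1 differed by -0.81 ± 0.14 (adjusted p = 0.00123). H2-T23, whose product Qa-1 is the ligand of CD94 with NKG2 chains, was at 212, 203 and 202 CPM in BPH/2J at 22 weeks, 104, 102 and 94.2 in BPH/2J at 4 weeks and 390, 293 and 227 in BPN/3J. H2-T23 was lower in 22-week BPH/2J than in BPN/3J (-0.56 ± 0.15, adjusted p = 0.0138) and higher than at 4 weeks (1.04 ± 0.15, adjusted p = 0.000452). Cdh5, a cadherin of the list, was higher than in BPN/3J (0.34 ± 0.08, adjusted p = 0.0075), Vwf was higher than at 4 weeks (0.86 ± 0.17, adjusted p = 0.00315), and Vim (-1.12 ± 0.12) and Anxa1 (-0.63 ± 0.06) were lower than at 4 weeks.

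Of 38 other genes with a C-type lectin domain, 28 were tested. In 22-week BPH/2J, 3 were higher and 6 lower than in BPN/3J, and 7 higher and 6 lower than at 4 weeks, while in 4-week BPH/2J 7 were higher and 10 lower than in BPN/3J. Beside them stand the same shares of all tested genes, 19.8% and 18.2%, 19.9% and 21.1%, and 27.8% and 25.3%. Beside Cd93, the higher ones in the line comparison included Cd209b (log2 2.82 ± 0.56, adjusted p = 0.00303, edgeR), and the lower ones Pla2r1 (-0.66 ± 0.15) and Prg2 (-1.52 ± 0.35). Cd209b had 93 counts over the 22-week BPH/2J libraries and 12 over BPN/3J, and Prg2 had 23 and 62. Each passed the filter on low counts through the group in which it is high, so both calls carry that limit. In the age comparison Ly75 (1.14 ± 0.19) was among the higher ones and Layn (-0.65 ± 0.08) was lower. Thbd, thrombomodulin, and Olr1, the oxidised LDL receptor, had no call in any comparison, and Cd69, a neighbour of Clec2d, was lower in 4-week BPH/2J than in BPN/3J (-0.99 ± 0.37, adjusted p = 0.0428).

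By position, the calls of members on chromosome 6 were set beside those of the other 781 tested genes of that chromosome. In 22-week BPH/2J against BPN/3J, 36.4% of 22 tested members and 36% of the other genes were called, between the ages 59.1% and 42.4%, and in 4-week BPH/2J against BPN/3J 50% and 52.1%. Of the 13 tested members in the natural killer complex, 46.2%, 53.8% and 76.9% were called in these comparisons. For its 6 other tested genes the shares were 16.7%, 33.3% and 50%. The direction was not the same throughout the complex. Going from Klrb1a to Klra2, Clec12b was lower and its neighbour Clec1b higher in 22-week BPH/2J than in BPN/3J, Clec1a was not called, Clec7a was lower, and the run Klra4, Klra11-ps, Klra9, Klra10, Klra3 and Klra1 had its reads in BPH/2J, with Klra17 before it and Klra2 after it highest in BPN/3J. Gene order here is that of the GRCm38.p6 annotation.

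The authors' deposited table of comparisons, which rests on the same counts, gave the same directions for the calls made in both analyses. In it, 10 members were higher and 12 lower in 22-week BPH/2J than in BPN/3J, 12 and 9 in 22-week against 4-week BPH/2J, and 10 and 13 in 4-week BPH/2J against BPN/3J, at a false discovery rate under 0.05. The 10, 16 and 13 calls that both analyses made had the same sign in all cases. Of the other calls in the authors' deposited table, 7, 4 and 8 were members under the filter on low counts used here. A further 5, 1 and 2 were members tested here and not called. In 4-week BPH/2J against BPN/3J, 1 call was made only here.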

How the data were processed

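The 9 libraries were polyA-selected RNA-seq of total RNA from cardiac endothelium, sequenced as single reads per the labels' protocols. Per the submitters' processing notes, the build was mm9 and the tools were TopHat2 2.0.13 and Bowtie2 2.24 beside featureCounts of Subread, CASAVA 1.8.2, edgeR and FastQC. The annotation release and whether counting used strand are not given in the sources used here. Ly49 gene content is known to differ among inbred mouse strains, and how reads of either line align to this build was not tested.

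The deposited table holds raw counts per gene, with CPM, log2 fold changes and false discovery rates (adjusted p-values) that the authors computed, per the file headers. Its counts, which reproduce its CPM from the library totals, were the input here, and every row has at least 10 counts in all. Its gene lengths were used for levels per kilobase. Depth was 28806840 to 32913813 counts per library.

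Genes were kept by filterByExpr and scaled by TMM in edgeR 4.0.16 (R 4.3.3), which also gives the CPM printed. One quasi-likelihood model was fitted to all 9 libraries and all 15277 genes that passed, with Benjamini-Hochberg adjustment over them and a threshold of 0.05. The standard error is the fold change divided by the square root of F. Where a group had 0 to 3 counts, count ratios with exact binomial 95% intervals replace fitted folds. The code was tested on simulated data. Equal replicate numbers did not pair the libraries (correlations of deviations from -0.161 to 0.0774 in 9 pairs). Alternatives were other scalings, filters, DESeq2 1.42.0, 2-group fits, a replicate block and leaving out each library.

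Named members are those called in any comparison or with a group mean of at least 1 CPM, and the others are given by range or counts. From the lists of adaptors, ligands and other lectin genes, fixed names and the 2 called genes with the smallest adjusted p per direction are given, except 1 that is not reported here. The members and lists were chosen with earlier results of these data known. Promoters came from RefSeq (GRCm38.p6; 37 of 45 members matched) and transcripts from GENCODE M21, for sequence and gene order only.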

Additional observations from a re-analysis of the deposited data

How the results depend on the processing

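In 22-week BPH/2J against BPN/3J, the count of called members was 10 and moved to 17 with DESeq2's Wald test. That run did not use the filter on low counts, and its added calls included Klra1, Klra3, Klra4 and Klra11-ps, which are under that filter. Leaving out 1 library gave 10 to 17 called members there, 12 to 19 between the ages (16 with all libraries) and 13 to 17 in 4-week BPH/2J against BPN/3J (14). The value of 17 between the lines at 22 weeks came without 4-week BPH/2J replicate 1, with 8 higher and 9 lower. Each fit that left out libraries was filtered anew, so its tested genes differ from those of the main fit. Over all genes the leave-one-out counts were 4362 to 7117, 4606 to 7383 and 6968 to 8682. With replicate number as a block (replicate block), 11, 16 and 15 members and 5261, 5758 and 7723 genes were called, the same sides as reported except that Clec12a was called lower in 22-week BPH/2J than in BPN/3J (adjusted p = 0.044) and Clec5a higher in 4-week BPH/2J than in BPN/3J (0.0472). Scaling by library totals moved the split of all called genes in 22-week BPH/2J against BPN/3J to 3849 higher and 2305 lower, against 3024 and 2786, and left 6 and 4 members. In 22-week BPH/2J against BPN/3J, Clec3b (adjusted p = 0.0438), Clec4a3 (0.0368) and Clec12a (0.0429) were called lower with DESeq2, and Clec3b (0.00204), Clec4a3 (0.0446) and Klra2 (0.0433) with the 2 groups fitted alone, and DESeq2 called Clec5a higher in 4-week BPH/2J than in BPN/3J (0.044). Without the low-count filter 15, 18 and 19 members were called. Over the settings run, no named member changed direction while called. Beyond these changes of filter, the cause of the shifts was not tested. With 3 libraries a group, members of few counts such as Klrk1 and Klra2 depend on single libraries, and for rows under 3 counts a library the depth cannot show a difference.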
